A study of Citrullus lanatus with 6 samples.

Results

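From watermelon leaf, 3 cell wall genes were examined out of 19742 genes with read counts. They were ClCG09G010010, described as a proline-rich extensin-like family protein, Novel00791, a gene model outside the annotation that resembles the extensin-like protein EPR1, and ClCG05G025240, described as xyloglucan endotransglucosylase/hydrolase 5. The 3 genes were chosen by their read counts and FPKM (defined below) in the comparison of drought-stressed with control leaves, being near 0 in drought, so that difference is described here and carries no test. Their spread between control plants was known at that choice and is likewise only described. All plants were of the cultivar Crimson Sweet and of the same age. Drought-stressed plants grew in pots that were held at 35 ± 5% soil moisture after watering was withheld, and control plants in pots watered to 95 ± 5% relative water content. Leaf RNA was sequenced 8 days after the drought treatment began, from 3 plants per group with 1 library per plant. The total count per library was 17907062 to 22351455. The fitted comparison covered 16318 genes, the 3 genes among them.

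The plant cell wall is a network of cellulose microfibrils tied by xyloglucan, embedded in pectin and strengthened by structural glycoproteins. Extensins are rich in proline that is hydroxylated and glycosylated, and they are cross-linked in the wall, where they make it less extensible. Xyloglucan endotransglucosylase/hydrolases (XTHs) cut xyloglucan chains and join the cut end to another chain or to water, which lets a wall be remodeled while a cell grows. EPR1 takes its name from an extensin-like gene of Arabidopsis known from the endosperm of germinating seeds. Leaf cell expansion is among the processes most sensitive to water deficit.

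In the Charleston Gray genome, ClCG09G010010 lay on chromosome 9 from base 9751184 to 9751930 on the plus strand, with a counted length of 747 bases that equals its span. Novel00791 lay on the same chromosome from base 21878742 to 21882705, also on the plus strand, and its counted length of 3964 bases again equals its span, so both models have no intron in the table. ClCG05G025240 lay on chromosome 5 from base 36699996 to 36701248 on the minus strand, with 695 counted bases in a span of 1253. None of the 3 overlapped a neighboring gene of the table.

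The state of the libraries bears on all values below. Control replicate 2 stood apart from the other control plants, with a Pearson's r across tested genes of 0.888 and 0.844 with control replicates 1 and 3 on log2(FPKM + 1), where those reached 0.955 with each other. FPKM is the read count scaled by gene length and by the total count of the library, and genes are not independent replicates in these correlations. The leaf label was checked with 7 genes described as chlorophyll a-b binding proteins, whose summed FPKM was 7510 to 10750 in drought-stressed leaves and 12757 to 47423 in control leaves. Of these 7 genes 5 were tested and 1 was lower in drought by edgeR, where 8.08% of all tested genes were. DESeq2 called 5 lower, and without control replicate 2 edgeR called all 7, where 14.8% of tested genes were lower. All 7 were described in the study's own list of genes lower in drought on these samples, so their direction was set in advance. The shares over all tested genes are thus no even comparison for them.

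ClCG09G010010 was nearly silent in drought-stressed leaves. Its read counts were 1, 0 and 0 in drought replicates 1, 2 and 3, against 1668, 805 and 2842 in control replicates 1, 2 and 3. On the scale of FPKM, the level was 0.0603 in drought replicate 1 and listed at 0 in the other drought replicates, against 106, 60.2 and 174 in the control plants in the same order. The single read of drought replicate 1 was thus the whole signal of the drought-stressed group. Over all plants the level was 6542-fold lower in drought-stressed leaves, with a 95% exact interval of 1174 to 258463 for counting error only. The lowest control plant still exceeded the highest drought-stressed plant by 922-fold in CPM, the count scaled to a common library total. In bulk leaf RNA, fewer cells expressing a gene and less RNA per cell cannot be told apart.

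Novel00791 had no read in any drought-stressed leaf. Its counts were 0, 0 and 0 in the drought replicates, against 249, 74 and 686 in control replicates 1, 2 and 3. The FPKM values of the control plants were 2.99, 1.04 and 7.92, so this long gene model was the least abundant of the 3 genes per length. With a floor of 3 counts over the drought-stressed group, its level was at least 414-fold lower in drought-stressed leaves than in control leaves. Against control replicate 2 alone the bound was 84.0-fold, and against control replicate 3 alone it was 903-fold. The bound is set by the reads of the control plants, so it does not rank this gene against the other 2 for the depth of the fall.

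ClCG05G025240 was the most abundant of the 3 genes in control replicates 1 and 3, and kept a few reads in drought. Its counts were 0, 4 and 4 in drought replicates 1, 2 and 3, against 6602, 69 and 4269 in control replicates 1, 2 and 3. The FPKM values were 0, 0.257 and 0.272 in the drought replicates, against 453, 5.54 and 281 in the control replicates. The groups did not overlap, but control replicate 2 sat far closer to the drought-stressed plants than the other control plants did. Over all plants the level was 1683-fold lower in drought-stressed leaves (95% exact interval 854 to 3900, counting error only). Set against control replicate 2 alone it was 29.4-fold lower (14.1 to 70.7), and set against control replicates 1 and 3 together it was 2620-fold lower (1329 to 6070).

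**Figure D1:**
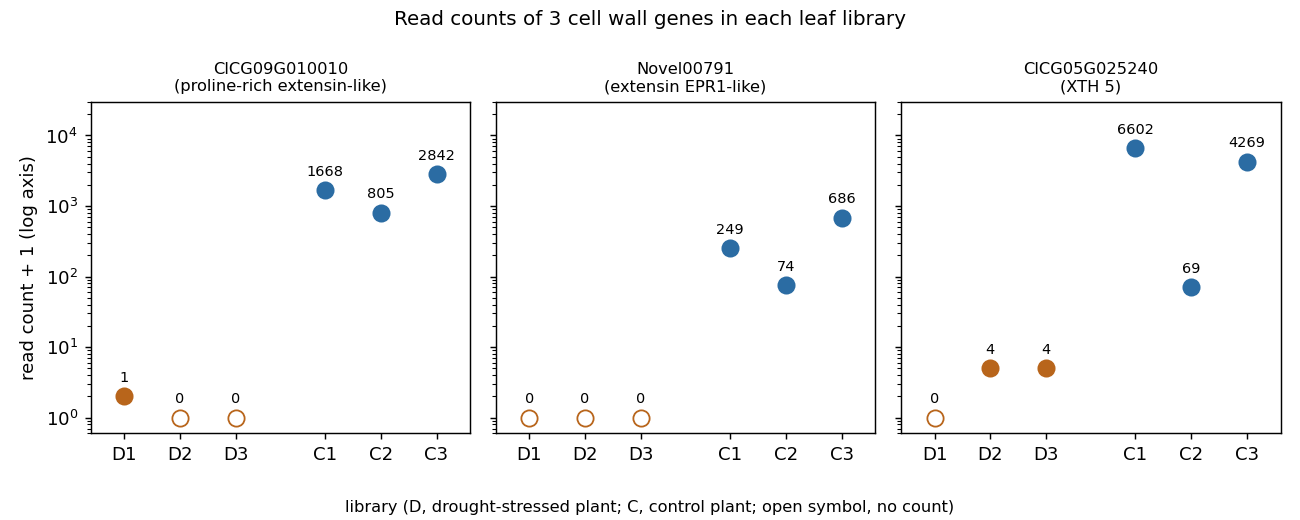
Read counts of the 3 genes in each library, as count + 1 on a log axis, with drought-stressed plants (D1 to D3, orange) left of control plants (C1 to C3, blue). Open symbols mark libraries with no read. Drought-stressed plants had 0 to 4 reads and control plants 69 to 6602, with control replicate 2 lowest for each gene.

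The same 3 genes held very different places among the transcripts of a control leaf. Ranked by FPKM, ClCG05G025240 was number 184 of 17874 genes with an FPKM above 0 in control replicate 1 and number 303 of 17883 in control replicate 3, whereas it was number 11304 of 18061 in control replicate 2. ClCG09G010010 was number 962, 2292 and 515 in control replicates 1, 2 and 3. Novel00791 was number 12616, 15164 and 8453. ClCG05G025240 was therefore among the abundant transcripts of a pair of control plants and far down the list in the other one, while the extensin-like ClCG09G010010 stayed among the abundant transcripts of each control plant.

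All 3 genes were lowest in control replicate 2 among the control plants. The order by CPM was control replicate 3, then 1, then 2 for both extensin-like genes, and control replicate 1, then 3, then 2 for ClCG05G025240. Of all tested genes 38.4% were lowest in control replicate 2, or 24.5% when CPM was computed on unscaled library totals, and the order of the 3 genes was the same on both scales. What separated the 3 genes was how far control replicate 2 lay below. Its CPM was 0.313 of the mean of control replicates 1 and 3 for ClCG09G010010, 0.138 for Novel00791 and 0.0113 for ClCG05G025240. On unscaled library totals these ratios were 0.429, 0.191 and 0.0151. A ratio as low or lower was found in 1632 tested genes for ClCG09G010010, in 569 or 3.49% for Novel00791 and in 123 or 0.754% for ClCG05G025240, these genes included. This spread was known when the 3 genes were chosen, so such shares describe their place and are no test of rarity.

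Part of that tail consists of genes with few reads. Among the 10105 tested genes with a mean of at least 10 CPM in control replicates 1 and 3, a level set after the values were seen, 7 had a ratio at or below that of ClCG05G025240, itself included. For Novel00791 the number was 239, and for ClCG09G010010 it was 891. The highest control plant exceeded the lowest by 4.09-fold for ClCG09G010010, 10.8-fold for Novel00791 and 106-fold for ClCG05G025240, where the median of tested genes was 1.95-fold. The coefficient of variation between control plants was 63.1, 97.5 and 89.8% for ClCG09G010010, Novel00791 and ClCG05G025240, where the median of tested genes was 34.1%. On unscaled library totals the folds were 2.89, 7.60 and 81.6, beside a median of 2.15. The coefficients were then 50.5, 88.9 and 91.5%, beside a median of 39.5%. A fold as wide as that of ClCG09G010010 or wider was found in 32.1% of tested genes on that scale, and in 17.9% on TMM-scaled totals.

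**Figure D2:**
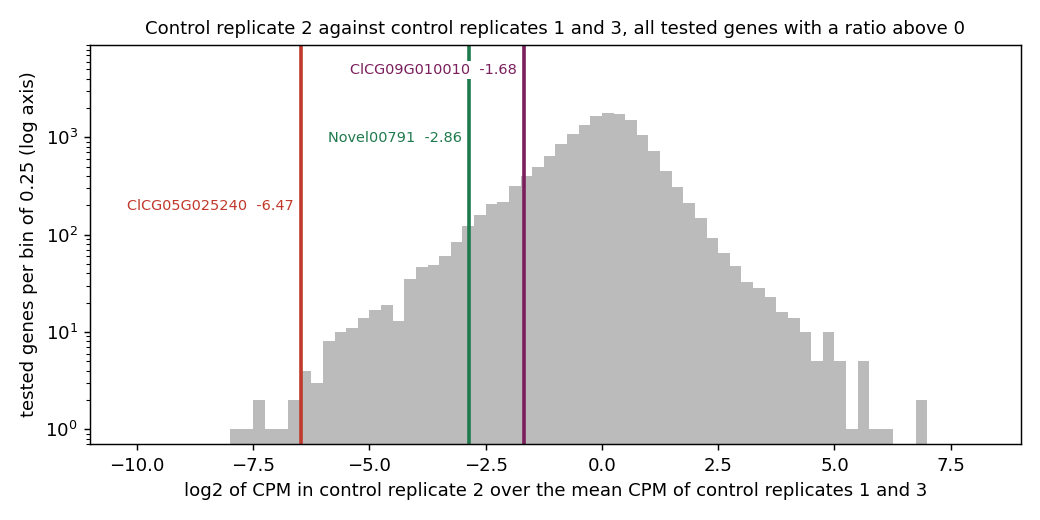
Histogram of the log2 ratio of the CPM in control replicate 2 to the mean CPM of control replicates 1 and 3, over the 16163 tested genes with a ratio above 0 (gene numbers on a log axis, bins of 0.25). Lines mark the 3 genes, at -1.68, -2.86 and -6.47, with ClCG05G025240 in the far left tail.

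Whether the 3 genes vary together among well-watered plants can be described over 3 plants only, which allows no correlation. The pair of extensin-like genes kept the more even proportion. Novel00791 had 0.149, 0.0919 and 0.241 reads per read of ClCG09G010010 in control replicates 1, 2 and 3, a 2.63-fold range. ClCG05G025240 had 3.96, 0.0857 and 1.502 reads per read of ClCG09G010010 in the same plants, a 46.2-fold range. Against Novel00791 the numbers were 26.5, 0.932 and 6.22, a 28.4-fold range. The 3 genes thus shared the low value in control replicate 2, whereas the XTH gene ran through a far wider range of proportions to the extensin-like genes and was highest in another control plant.

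The same was seen when each gene's log2 CPM was centred on its own mean and the root-mean-square (RMS) difference to every other tested gene was taken. Over the 3 control libraries, a version added after the values were seen, Novel00791 and ClCG09G010010 differed by 0.556 log2 units. ClCG05G025240 differed by 2.33 log2 units from ClCG09G010010 and by 1.97 from Novel00791. Seen from ClCG09G010010, Novel00791 was nearest neighbor number 3099 and ClCG05G025240 number 16085 of the 16317 other tested genes. Seen from Novel00791, ClCG09G010010 was number 520 and ClCG05G025240 number 14322. Most tested genes were thus closer than ClCG05G025240 to each extensin-like gene within the control plants. Seen from ClCG05G025240, whose own spread exceeded that of nearly all genes, Novel00791 was number 713 and ClCG09G010010 number 1595, so most tested genes were further from it than these 2. Over all 6 libraries, the near-silent drought-stressed ones included, the genes stood closer in rank. Novel00791 was then number 7 for ClCG09G010010 and number 4 for ClCG05G025240, and ClCG05G025240 was number 18 for ClCG09G010010. Seen from Novel00791, ClCG09G010010 was number 38 and ClCG05G025240 number 74. Seen from ClCG05G025240, ClCG09G010010 was number 10. The 3 genes were chosen for being near 0 in drought, so their closeness over all 6 libraries was largely set by that choice.

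Genes with the profiles most like each of the 3 over all 6 libraries had 0 to 139 reads in drought-stressed leaves. Nearest to ClCG09G010010, at an RMS difference of 0.57 log2 units, was ClCG07G004620, described as the abscisic acid receptor PYL4, a soluble sensor of the drought hormone abscisic acid. Its counts were 0, 3 and 0 in drought replicates 1, 2 and 3, against 2068, 592 and 3231 in control replicates 1, 2 and 3. It was also the nearest gene to ClCG05G025240, at 1.57. The other genes near ClCG09G010010 were the lipid-transfer family genes ClCG10G002880 (1.07) and ClCG10G002870 (1.20), the thaumatin-like gene ClCG10G019850 (1.14) and ClCG05G019570 (1.28), described as myb domain protein r1. ClCG10G019850 differed from it within the control plants, being highest in control replicate 2.

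Novel00791 had closer matches. ClCG04G006740, described as the abscisic acid receptor PYR1, lay at an RMS difference of 0.39 and had no read in drought-stressed leaves, against 246, 48 and 343 reads in control replicates 1, 2 and 3. ClCG02G004950, described as the transcription factor RADIALIS, which is known from flower symmetry in snapdragon, lay at 0.43 with 0, 0 and 2 reads in the drought replicates, against 298, 55 and 633 in the control replicates. ClCG07G002280, a 4-coumarate-CoA ligase of the phenylpropanoid pathway, lay at 0.58 and kept 139, 52 and 40 reads in the drought replicates, against 5740, 1851 and 13564 in the control replicates. ClCG11G014960, with no informative description, lay at 0.70 and Novel00600, an XTH, at 0.71. ClCG05G025240 had no gene as close. Its 5 nearest lay at 1.57 to 1.66 and were ClCG07G004620, ClCG02G004950, ClCG11G016220 of unknown function, Novel00791 and ClCG01G023660, a member of the trichome birefringence-like family. Of these, ClCG01G023660 came closest to its low value in control replicate 2, with 1499, 50 and 1467 reads in control replicates 1, 2 and 3.

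**Figure D3:**
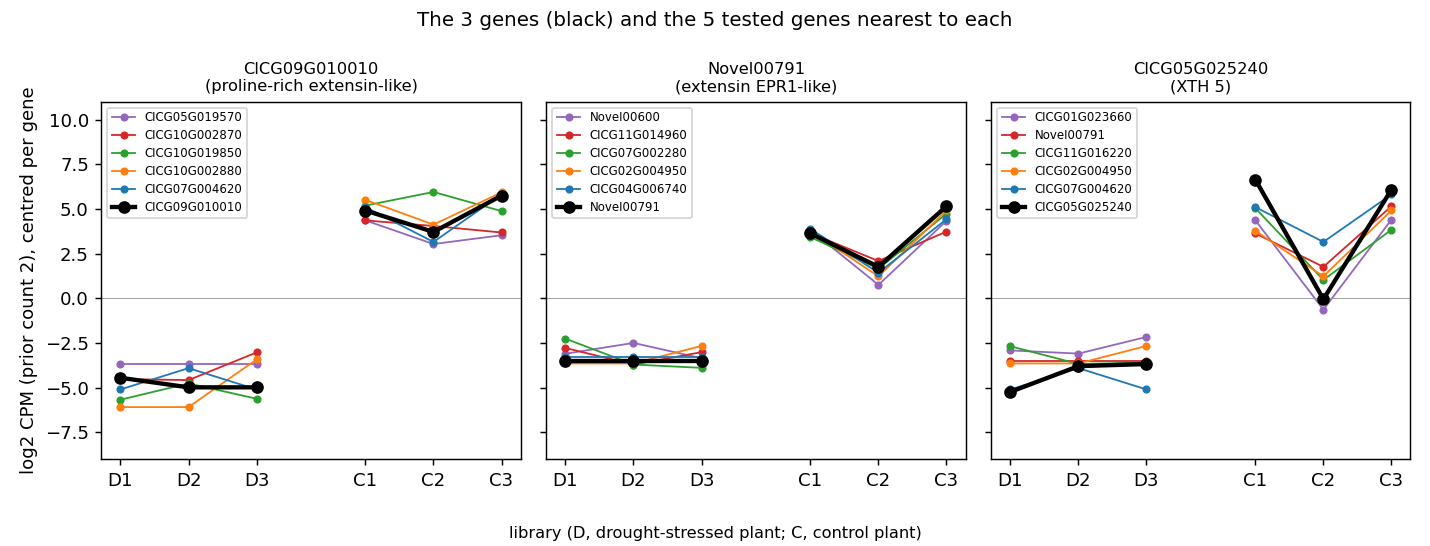
Log2 CPM (prior count of 2) centred on each gene's mean over the 6 libraries, for the 3 genes (black) and the 5 tested genes nearest to each, with drought-stressed plants (D1 to D3) left of control plants (C1 to C3). The nearest genes of Novel00791 lie within 0.71 log2 units of it (RMS difference), whereas those of ClCG05G025240 lie at 1.57 to 1.66.

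Both extensin-like genes belong to a list of 17 genes with extensin in their descriptions, all of which were tested. Summed over the list, FPKM was 229, 218 and 201 in drought replicates 1, 2 and 3, against 1051, 947 and 800 in control replicates 1, 2 and 3. In the control plants ClCG09G010010 made up 10.1, 6.36 and 21.8% of that sum, and it was the most abundant extensin of control replicate 3. Novel00791 made up 0.990% at most. Of the other 15 extensins 9 were lower and 2 were higher in drought, with 4 that did not pass the test. For comparison, 8.08% of all tested genes were called lower and 5.31% higher (edgeR's quasi-likelihood test, adjusted p under 0.05). Descriptions were held mostly for genes that the study had called on these same samples, of which 32.8% were called lower here, so the list is not independent evidence of a direction. Their median log2 fold change was -3.35, beside -0.03 over all tested genes.

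ClCG01G017230, extensin proline-rich 1, was lowered most among the other extensins, with 87, 14 and 63 reads in the drought replicates, against 5981, 529 and 3240 in the control replicates (log2 fold change -6.21, SE 1.12, edgeR adjusted p = 0.0174). ClCG09G009910, an extensin-like gene on the chromosome of both extensin-like genes above, had 47, 150 and 12 reads in drought, against 2338, 6050 and 321 in control (log2 fold change -5.66, SE 1.25, edgeR adjusted p = 0.0301). It ran against the 3 genes among the control plants, with the highest value in control replicate 2. Of the extensins, 2 were higher in drought. ClCG02G009600, leucine-rich repeat/extensin 1 of the family that links wall and plasma membrane, had 84, 293 and 78 reads in drought, against 0, 3 and 2 in control (log2 fold change 6.09, SE 0.96, edgeR adjusted p = 0.0116). ClCG07G016060 had 1906, 1518 and 1210 reads, against 220, 63 and 180 (log2 fold change 2.98, SE 0.49, edgeR adjusted p = 0.0134). Of these 4 genes, ClCG02G009600 passed the threshold whichever library was left out. Each of the others missed it without at least 1 drought-stressed library, at an edgeR adjusted p of up to 0.0850 for ClCG01G017230, 0.119 for ClCG09G009910 and 0.0602 for ClCG07G016060.

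The other 15 extensins covered a wide range of spread between control plants. The ratio of control replicate 2 to the mean of control replicates 1 and 3 ran from 0.0179 for ClCG00G004470 to 4.09 for ClCG09G009910. ClCG00G004470 did not pass the test (edgeR adjusted p = 0.156), and it passed with the replicate block (0.0111). Of the other 15 extensins 8 were lowest in control replicate 2, where 38.4% of all tested genes were (24.5% on unscaled library totals). The count of 9 lower extensins depended on which libraries were used. It was 5, 11 and 9 without control replicates 1, 2 and 3, and 4, 3 and 2 without drought replicates 1, 2 and 3.

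ClCG05G025240 is one of 17 XTH genes by description. Their summed FPKM was 120, 134 and 142 in drought replicates 1, 2 and 3, against 1383, 220 and 1093 in control replicates 1, 2 and 3. By this sum control replicate 2 stood nearer to the drought-stressed plants than to the other control plants. The sums rest on few genes, however. ClCG02G021510, higher in drought, gave 19.8, 89.8 and 55.7 of the drought sums. Novel00601 gave 160 in control replicate 2, against 74.2, 33.4 and 55.7 in drought. Novel00981 was highest in control replicate 2 among control plants. ClCG05G025240 made up 32.7, 2.52 and 25.7% of the family sum in control replicates 1, 2 and 3, second to Novel00601 in control replicates 1 and 3. Of the other 16 XTH genes 10 passed the filter on low counts, of which 5 were lower and 1 was higher in drought. The ratio of control replicate 2 to control replicates 1 and 3 was below that of ClCG05G025240 in none of these 10, the closest being ClCG10G008300 at 0.0436 and Novel00813 at 0.0541. Of the 10 genes 8 were lowest in control replicate 2, where 38.4% of all tested genes were (24.5% on unscaled library totals). In the main fit 8.08% of all tested genes were lower and 5.31% higher, and of described genes 32.8 and 24.1%. XTH descriptions came mostly from genes the study had called on these samples, so this list is no independent evidence of a direction either.

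Novel00601, the most abundant XTH of each control plant, had FPKM values of 74.2, 33.4 and 55.7 in the drought replicates, against 594, 160 and 492 in the control replicates (log2 fold change -3.20, SE 0.65, edgeR adjusted p = 0.0242). It lies on chromosome 6 beside other XTH models, one of which, Novel00600, had 3, 6 and 2 reads in drought, against 500, 64 and 680 in control (log2 fold change -7.14, SE 1.07, edgeR adjusted p = 0.0106). Novel00600 thus came nearest to ClCG05G025240 in the size of its difference within the family. ClCG02G021510, described as XTH protein 31, was the single XTH called higher, with 496, 2271 and 1332 reads in drought, against 23, 51 and 24 in control (log2 fold change 5.09, SE 0.63, edgeR adjusted p = 0.00656). It passed the threshold whichever library was left out, whereas the edgeR adjusted p reached 0.109 for Novel00601 and 0.0613 for Novel00600 without drought replicate 3. Reads of near-identical family members may be shared between models, which touches the clustered XTH genes most. Of the other 16 XTH genes, those called lower numbered 1, 10 and 6 without control replicates 1, 2 and 3, and 1, 1 and 0 without drought replicates 1, 2 and 3, in fits that each apply the filter anew. With libraries paired by replicate number (the replicate block, a pairing that no source names), 8 were lower. Among them was ClCG10G008300 (edgeR adjusted p = 0.00552, beside 0.0805 without the block).

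**Figure D4:**
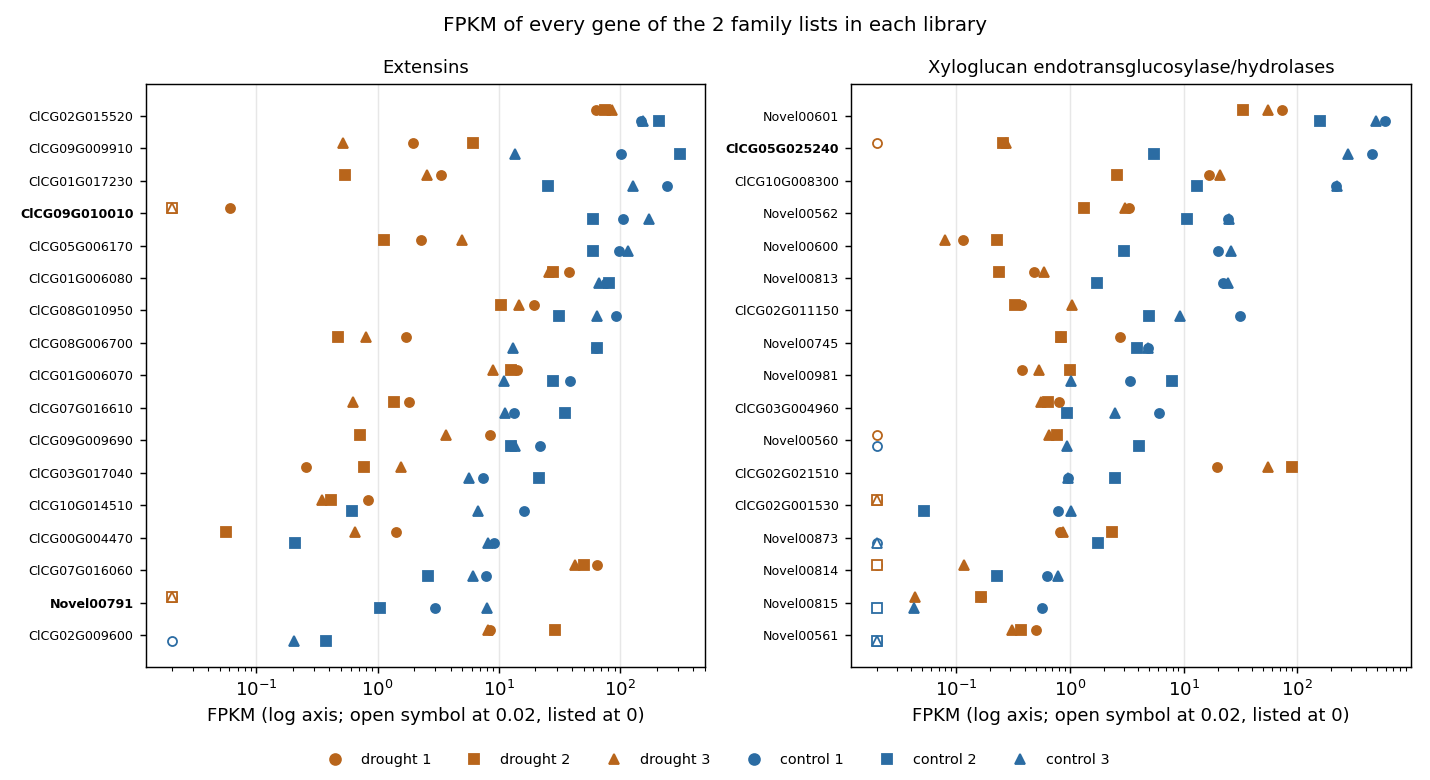
FPKM on a log axis for each of the 17 extensins and 17 XTH genes, with drought replicates (orange) above control replicates (blue) for each gene, circles, squares and triangles for replicates 1, 2 and 3, and open symbols where FPKM is listed at 0. The 3 genes are in bold, and ClCG05G025240 shows a wide gap between control replicate 2 (5.54) and the other control plants (453 and 281).

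The 3 genes were then set beside 13 lists of cell wall genes made from words in the descriptions, which hold 145 genes, 133 of them tested. Of the 145 genes, 141 were described in the study's own lists of genes higher or lower in drought on these samples. Their direction was thus largely set in advance, and shares over all tested genes are no even comparison for them. Without the 3 genes, 61 of the 130 tested wall genes were lower and 16 were higher in drought, and their median log2 fold change was -2.51. Over all tested genes 8.08% were lower and 5.31% higher, at a median of -0.03, and over the genes with a description, which favor those called in the study, 32.8% were lower and 24.1% higher, at a median of -1.26. Every drought-stressed plant was below every control plant in 73 of the 130 genes, and in 18.5% of all tested genes, and above in 21 of the 130 and in 19.9% of all. Control replicate 2 was the lowest control plant in 85 of the 130, or 65.4%, where the share over all tested genes was 38.4%. Of the other 142 wall genes, those called lower numbered 19, 105 and 54 without control replicates 1, 2 and 3, and 12, 15 and 7 without drought replicates 1, 2 and 3. That of higher wall genes was 6, 18 and 11, and 3, 4 and 3.

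By role, arabinogalactan proteins, pectin enzymes and cellulose genes were more often called lower than higher. All of them were described in the study's own lists of genes higher or lower in drought on these samples. That balance was thus set in advance and is no finding about these roles. Of 11 tested arabinogalactan proteins, which include the fasciclin-like adhesion proteins, 8 were lower and none was higher by edgeR (11 lower and 0 higher at an unadjusted p under 0.05, and the same numbers by DESeq2 after adjustment), and 10 were lowest in control replicate 2. Over all tested genes 8.08% were lower and 5.31% higher, and over described genes 32.8 and 24.1%. The share lowest in control replicate 2 was 38.4% over all tested genes. Every arabinogalactan gene took its description from the study's own list of genes lower in drought on these samples. The direction of that list was thus set in advance, and the shares are no even comparison for it. ClCG02G002910, a fasciclin-like arabinogalactan protein, had 761, 508 and 633 reads in drought, against 8094, 1436 and 7845 in control (log2 fold change -3.53, SE 0.69, edgeR adjusted p = 0.0223). Among 26 tested pectin enzymes 13 were lower and 1 was higher, with the pectinesterase ClCG09G001400 at 256, 103 and 199 reads in drought, against 2574, 1544 and 2404 in control. Without drought replicate 3 the edgeR adjusted p was 0.0994 for ClCG02G002910 and 0.0362 for ClCG09G001400. Among 24 tested genes of cellulose synthesis and cutting 10 were lower and 4 were higher, or 16 and 1 with the replicate block. These counts rested on the full set of libraries. The arabinogalactan list had 0, 11 and 4 lower genes without control replicates 1, 2 and 3, and 0 whichever drought replicate was left out. Pectin enzymes had 5, 24 and 11, and 3, 3 and 1 without drought replicates 1, 2 and 3. Cellulose genes had 3, 19 and 7, and 1, 3 and 1.

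Beside the counts that follow, 8.08% of all tested genes were lower and 5.31% higher, and of described genes 32.8 and 24.1%. The expansins and beta-1,3-glucanases were all described in the study's own lists of genes higher or lower in drought on these samples. Their directions were thus set in advance, and the counts are no further evidence. Expansins, which loosen walls without cutting them, were called in both directions. Of 7 tested expansins 3 were lower and 2 were higher, and ClCG07G005080, an expansin S1 family protein, had FPKM values of 122, 274 and 110 in drought, against 20.2, 3.02 and 8.56 in control (log2 fold change 3.71, SE 0.77, edgeR adjusted p = 0.0259). Leaving out 1 library at a time left 0 to 4 lower and 0 to 3 higher expansins. Beta-1,3-glucanases, which cut callose, were lower in 7 of 10 and higher in 1, with 3 to 9 lower and 0 to 1 higher over the same fits. One of them, ClCG03G010980, resembled the 3 genes in drought, with 1, 5 and 0 reads, and differed from them among control plants, with 661, 1879 and 639 reads and its highest value in control replicate 2. ClCG05G026650, a proline-rich protein, had 320, 170 and 106 reads in drought, against 18592, 500 and 9845 in control (log2 fold change -5.96, SE 1.28, edgeR adjusted p = 0.0283), so its control replicate 2 was nearly as low, at 0.0313 of the mean of the other control plants. Without drought replicate 2 the edgeR adjusted p of ClCG07G005080 was 0.0826, and without drought replicate 3 that of ClCG05G026650 was 0.119.

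In the smaller lists, other proline-rich proteins were lower in 2 and higher in 1 of 6, beta-galactosidases lower in 2 and higher in 2 of 8 (5 and 1 with the replicate block), glycine-rich wall proteins lower in 1 and higher in 2 of 4, and xyloglucan side-chain transferases lower in 1 of 2. Of 2 prolyl 4-hydroxylases, the enzymes that hydroxylate the proline of extensins, and of 5 laccases, none passed edgeR's test after adjustment. At an unadjusted p under 0.05 edgeR had 2 lower prolyl 4-hydroxylases, and 4 lower laccases and 1 higher, and DESeq2 called the same numbers after adjustment. These genes were described in the study's own lists, called on the same samples in the same directions. The numbers thus repeat how the lists were made and are no further evidence. With the replicate block 1 laccase was lower. In the main fit 8.08% of all tested genes were lower and 5.31% higher, and of described genes 32.8 and 24.1%.

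**Figure D5:**
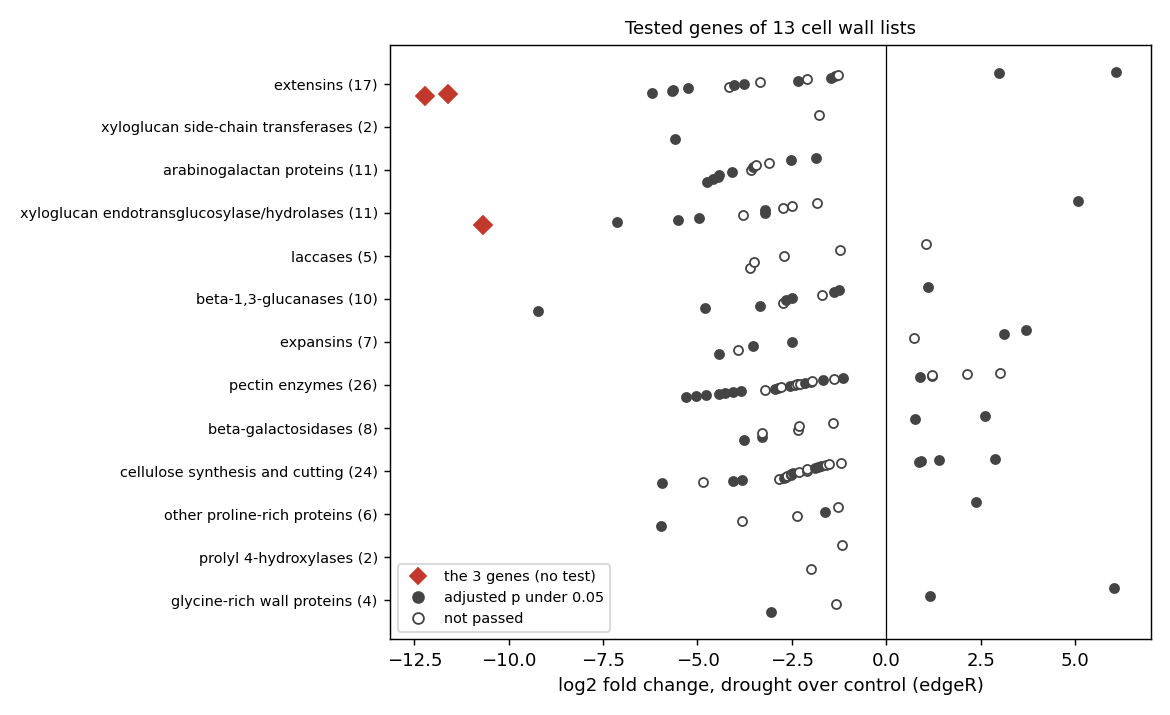
Log2 fold change, drought over control, of the tested genes of 13 wall lists (number tested in brackets), with filled circles for genes past an adjusted p of 0.05 and open circles for the others. The 3 genes (diamonds, shown with no test) lie at -12.22, -11.62 and -10.70, values that depend on the prior count of the fit. Genes called higher in drought lie among extensins, XTH genes, expansins, glycine-rich wall proteins, cellulose genes, beta-galactosidases, beta-1,3-glucanases, pectin enzymes and other proline-rich proteins. Laccases hold a positive value that did not pass, and the remaining lists hold none above 0.

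Marker lists of leaf cell types were summed in the same libraries. All their genes were described in the study's own lists of genes higher or lower in drought on these samples, so their direction was set in advance. The summed FPKM of the chlorophyll a-b binding list was 10750, 7510 and 10588 in drought replicates 1, 2 and 3, against 47423, 12757 and 31709 in control replicates 1, 2 and 3, so it too was lowest in control replicate 2 among control plants. In a list of 13 genes of dividing cells, histones and cyclins by description, 12 were tested, 3 were lower and 1 was higher. DESeq2 called 9 lower and 3 higher. The summed FPKM was 292, 284 and 281 in drought, against 391, 389 and 252 in control, lowest in control replicate 3. That sum does not show how most of the list moved. ClCG08G017280, described only as a cyclin dependent kinase, weighed most in the drought sums, at 168, 151 and 132, against 73.5, 67.4 and 64.6 in control. In the main fit 8.08% of all tested genes were lower and 5.31% higher, and of described genes 32.8 and 24.1%. On library totals 1 gene of dividing cells was lower and 2 were higher, and with the replicate block 1 was lower and 0 were higher. The 1 phloem marker, phloem protein 2 (ClCG01G009230), had FPKM values of 67.5, 40.3 and 50.9, against 133, 116 and 181. Their part in the values of the 3 wall genes was not tested.

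The genes beside the 3 on their chromosomes were not near 0 in drought. Next to ClCG09G010010 stood ClCG09G009980 at 24496 bases and ClCG09G010020 at 6678 bases, both with reads in every library and log2 fold changes of -0.12 (SE 0.45) and -0.09 (SE 0.20), neither past the test and both of unstable sign across alternatives. ClCG05G025230, the splicing factor Prp31, lay 1560 bases from ClCG05G025240 on the other strand and was higher in drought, with 3309, 3353 and 2932 reads, against 1458, 1441 and 1250 (log2 fold change 0.91, SE 0.18, edgeR adjusted p = 0.0239, reaching 0.112 without drought replicate 3). On its other side ClCG05G025250, at 5120 bases, had 41, 26 and 34 reads, against 51, 67 and 48, and did not pass. The nearest genes to Novel00791 were far off, at 79834 bases (Novel00848) and 171173 bases (ClCG09G013890), and neither passed the test. ClCG09G013890, at a log2 fold change of -0.09, was likewise of unstable sign.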

How the data were processed

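RNA-Seq of leaf tissue was analysed for 3 drought-stressed and 3 control plants. Read counts for the genes of Charleston Gray were deposited by the authors, with FPKM values (counts scaled by gene length in bases and by library total) and a normalized signal, in which the authors divided the counts by a size factor per library (0.842 to 1.19). The paper names TopHat and HTSeq, whereas the submitters' processing notes name fastp, HISAT2 2.1.0, featureCounts and DESeq2. Strand is not marked by the library kit that the paper names. The authors' deposited log2 fold changes and p-values were not used.

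The counts were fitted with edgeR 4.0.16 in R 4.3.3 (quasi-likelihood test, two-sided, TMM scaling, filterByExpr at its minimum count (10) and total (15), condition as the single factor, Benjamini-Hochberg adjustment over all tested genes, threshold 0.05). The procedure was also run on simulated counts of lower dispersion than the fitted common value of 0.1723. That simulation held no library set apart from its group and no gene silenced in drought, so it does not cover these features. CPM are counts over TMM-scaled totals. Ratios carry exact 95% Clopper-Pearson intervals, and a group with no read is given a floor of 3 counts, both for counting error only. Profiles used log2 CPM with a prior count of 2. Alternatives were DESeq2 1.42.0, library totals, no filter on low counts, a replicate block, FPKM with pseudocounts of 1 and 0.1, and leaving out each replicate.

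The 3 genes, the gene lists and the tests were chosen with earlier results of these data known. Lists follow words in the descriptions held for 3743 genes, from the supplementary gene lists, one of them held in part, and the deposited table. The text draws on the genes beside each of the 3, all extensins and XTH genes, up to 3 called genes with the lowest adjusted p of each other list and the 5 genes of nearest profile, and gives part of these by name. ClCG02G002910, ClCG09G001400, ClCG07G005080, ClCG03G010980 and ClCG05G026650 are examples of that kind.

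Replicate numbers were checked for pairing. The deviations from the group means of same-numbered libraries correlated at 0.148, 0.430 and 0.130. Drought replicate 1 had a higher correlation with control replicate 3 (0.303). Deviations from a shared group mean depend on each other, so these values do not establish a pairing by number. No source names a shared block, and the paper describes independent plants. The block fit assumes such a pairing and is given as an alternative only.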

Additional observations from a re-analysis of the deposited data

How the results depend on the processing

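The 3 genes stayed far lower in drought under each alternative run. The log2 fold change of ClCG09G010010 was -12.22, with -13.96 to -11.65 over leave-one-out fits, the lowest without drought replicate 1, which holds its only read in drought. On log2(FPKM + pseudocount) it was -6.68 with a pseudocount of 1 and -9.79 with 0.1. For Novel00791 these values were -2.06 and -4.93 beside a fitted -11.62, and for ClCG05G025240 the pseudocount of 1 gave -6.33 beside a fitted -10.70, so the size of the change of a near-silent gene depends on the pseudocount. Over all tested genes, 1319 were lower and 866 higher. Lower genes numbered 858 on library totals and 2485 by DESeq2, and higher genes 1635 by DESeq2, with 164 to 2473 lower and 150 to 1884 higher over leave-one-out fits. Of the wall genes, the 3 included, 64 were lower and 16 higher, with 109 lower by DESeq2, 8 to 108 lower and 3 to 18 higher over leave-one-out fits. The replicate block assumes a pairing of libraries by number that no source names. With it, 87 wall genes were lower and 13 higher, and 12 of the other 15 extensins and 8 of the other 10 XTH genes were lower. Cellulose genes were 16 lower and 1 higher, and the 3 genes had log2 fold changes of -12.16, -11.53 and -10.14. Signs reversed for neighbors that did not pass the test, with ClCG09G009980 at 0.0727 on library totals and -0.30 to 0.31 over leave-one-out fits, above 0 without drought replicate 1 or control replicate 1, ClCG09G010020 at 0.0852 on library totals, and ClCG09G013890 at -0.31 to 0.36 over leave-one-out fits, above 0 without drought replicate 1 (0.00561) or control replicate 2. Leave-one-out fits hold fewer samples, and beyond that the cause was not tested. At these depths a gene with no read in drought is bounded by the floor of 3 counts only.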
